A study of Mus musculus with 45 samples.

Results

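The genes described here encode the secreted and membrane-bound proteases of the extracellular matrix and their inhibitors in mouse heart. They are all gene symbols of the form Mmp, Timp, Adamts or Adamtsl with a number among the 23284 symbols listed in the expression files. The rule used names and no measured value, and it gave 51 members, of which 23 were Mmp, 4 Timp, 19 Adamts and 5 Adamtsl genes. The study set expression beside maps of the cardiac transcription factor Gata4 and of histone marks in embryonic, adult and diseased heart. Of its 45 samples, 6 were RNA-seq libraries, and the other 39, which are chromatin libraries, were not analysed here. The labels describe all 6 libraries as primary heart tissue from which pooled RNA was taken, so 1 library may stand for several animals.

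Banding had 1 library and is an operation that narrows a vessel and loads the heart. Sham, its operated control, also had 1 library, and the labels give neither the vessel, the time after surgery nor the age for these hearts. Adult heart had 2 libraries. Embryonic heart at E12.5, in mid-gestation, had 1 library labelled Gata4 KO and 1 with no genotype label. The protocol shared by all samples names the alleles Gata4fbio, Rosa26BirA, cTNTcre and Gata4flox without saying which library carried them, and no strain is given. The troponin T promoter of cTNTcre is active in cardiomyocytes, so a Gata4 deletion made with it would leave other heart cells intact. Gata4 itself stood at a level of 6.13 in the library labelled Gata4 KO (4159 reads) and 5.93 in the E12.5 library (4290 reads), so the label was not borne out by a lower level over the whole transcript. Levels throughout are log2(FPKM + 1), as deposited, where FPKM is fragments per kilobase of transcript, scaled to the mapped reads of the library.

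Matrix metalloproteinases (MMPs) cleave collagens, elastin and other matrix proteins, and the membrane-type MMPs do so at the cell surface, where Mmp14 activates Mmp2. Tissue inhibitors of metalloproteinases (TIMPs) bind the active site of MMPs, and Timp3, which is held in the matrix, also blocks several ADAM and ADAMTS proteases. ADAMTS proteases cut large proteoglycans such as versican or trim procollagens, while ADAMTS-like proteins lack the protease domain and bind fibrillin-rich microfibrils. In the heart these genes are known for shaping the cushions and trabeculae of the embryo and for matrix turnover in the overloaded adult ventricle.

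Promoter sequences are shown for the genes on which the results turn. The windows are RefSeq sequences of mouse build GRCm38.p6, from 250 bases before to 50 bases after a gene's start, read 5′ to 3′ on the gene's strand, and 36 of the 51 members had an entry. Timp1 and Timp4 are given whole because they differed between banding and sham in opposite directions. Timp1 lies on chrX:20869916-20870215 (plus strand) and Timp4 on chr6:115252156-115252455 (minus strand). The capitals in Timp1 mark TGAGTAA, a variant of the AP-1 motif that was looked for after the sequence had been seen. It begins 26 bases after the start and occurs, on either strand, in 2.68% of all 32851 windows.
Timp1: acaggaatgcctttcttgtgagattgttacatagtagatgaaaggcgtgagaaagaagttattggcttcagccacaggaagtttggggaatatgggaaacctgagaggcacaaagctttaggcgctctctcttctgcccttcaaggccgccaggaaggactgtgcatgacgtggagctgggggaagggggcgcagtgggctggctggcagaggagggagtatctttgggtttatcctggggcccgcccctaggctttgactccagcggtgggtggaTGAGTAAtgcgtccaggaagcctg
Timp4: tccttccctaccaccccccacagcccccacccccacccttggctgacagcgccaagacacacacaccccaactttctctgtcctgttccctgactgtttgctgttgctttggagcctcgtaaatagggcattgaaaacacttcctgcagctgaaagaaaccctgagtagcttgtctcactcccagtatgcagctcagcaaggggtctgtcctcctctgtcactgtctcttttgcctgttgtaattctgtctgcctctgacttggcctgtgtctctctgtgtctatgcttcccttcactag

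The AP-1 motif TGANTCA, searched on both strands, was found in none of the 4 Timp windows and in 7.81% of all 32851 windows. Among the 36 members with a window, 8 held it, and all 8 are Mmp genes on chromosome 9. The 27 bases around each match are given, with the motif in capitals. All 8 genes are also among the members that never reached 1 FPKM, as are other members without the motif. The 8 stretches lie close together, between chr9:7272469 and chr9:7692043, so they are not independent cases.
Mmp1a: ttgtcaaccaTGAGTCAcatagcctct
Mmp1b: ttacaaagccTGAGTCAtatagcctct
Mmp3: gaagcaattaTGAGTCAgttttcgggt
Mmp7: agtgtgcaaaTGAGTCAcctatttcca
Mmp10: agcacccatgTGAGTCAtgcttagtga
Mmp12: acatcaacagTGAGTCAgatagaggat
Mmp13: cccaaagtggTGACTCAtcactatcat
Mmp20: atttgagacaTGAATCAtcacttacag
The 8 stretches lie at chr9:7464058-7464084 (plus strand) for Mmp1a, chr9:7388103-7388129 (minus strand) for Mmp1b and chr9:7445766-7445792 (plus strand) for Mmp3. They lie at chr9:7692017-7692043 for Mmp7, chr9:7502269-7502295 for Mmp10 and chr9:7347320-7347346 for Mmp12, all on the plus strand. Those of Mmp13 and Mmp20, also on the plus strand, lie at chr9:7272469-7272495 and chr9:7628126-7628152. The GATA motif AGATAA, on either strand, was in none of the 4 Timp windows, in those of 3 other members (Mmp7, Mmp24 and Mmp27) and in 11.2% of all windows. Of the 36 members with a window, 19 reached 1 FPKM in at least 1 library, and 0 of these 19 held either motif. A match describes these letters in these windows and is not evidence of binding.

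Depth ran between 12086929 mapped reads in sham and 21056784 in E12.5. The reads on listed genes were 56.5% of mapped reads in banding and 53.9% in sham, against 81.7% and 82.2% in the adult libraries and 76.6% and 75.6% in the library labelled Gata4 KO and in E12.5. Among the listed genes, the ribosomal RNA precursor Rn45s took 652906 reads in banding and 552795 in sham, 4.66% and 4.57% of mapped reads, against 0.234% and 0.287% in adult. The share of reads off listed genes was 43.5% in banding and 46.1% in sham, against 18.3% and 17.8% in adult, and what these reads are was not tested. Comparisons of sham with adult carry these differences, which are far smaller between banding and sham. Cardiomyocyte markers were present in all libraries, and the lung epithelium markers Sftpc and Scgb1a1 were at 0 in all libraries but the one labelled Gata4 KO, where their sum was 0.070 FPKM. The tissue was bulk heart, so fewer cells of a type and less RNA per cell cannot be told apart.

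Of the 51 members, 29 reached 1 FPKM in at least 1 library. The most members reached it in the embryonic libraries, 28 in the library labelled Gata4 KO and 26 in E12.5. In the other hearts the numbers were 18 in banding, 22 in sham and 17 and 18 in adult. Genes above 0 were also most numerous in the embryonic libraries, 17147 in the one labelled Gata4 KO and 17034 in E12.5. There were 16386 in banding, 16363 in sham and 15684 and 15429 in adult. How many of all genes reached 1 FPKM in each library was not counted. The other 22 members never reached 1 FPKM, and none of them had more than 78 reads in a library. Among these, Mmp1a, Mmp1b, Mmp7, Mmp10 and Mmp20 had 0 reads in all 6 libraries, where a count of 0 allows up to 3 reads per library.

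All 4 collagenases (Mmp1a, Mmp1b, Mmp8 and Mmp13) were among the 22, with at most 6 reads in a library, as were the gelatinase Mmp9 with at most 9 and the stromelysin Mmp3 with at most 9. The 8 genes with TGANTCA in their promoter window all belonged to the 22. They make up 8 of the 17 members that had a window and never reached 1 FPKM. The plot of levels shows the 29 members that did reach it, and none of these 8.

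**Figure D1:**
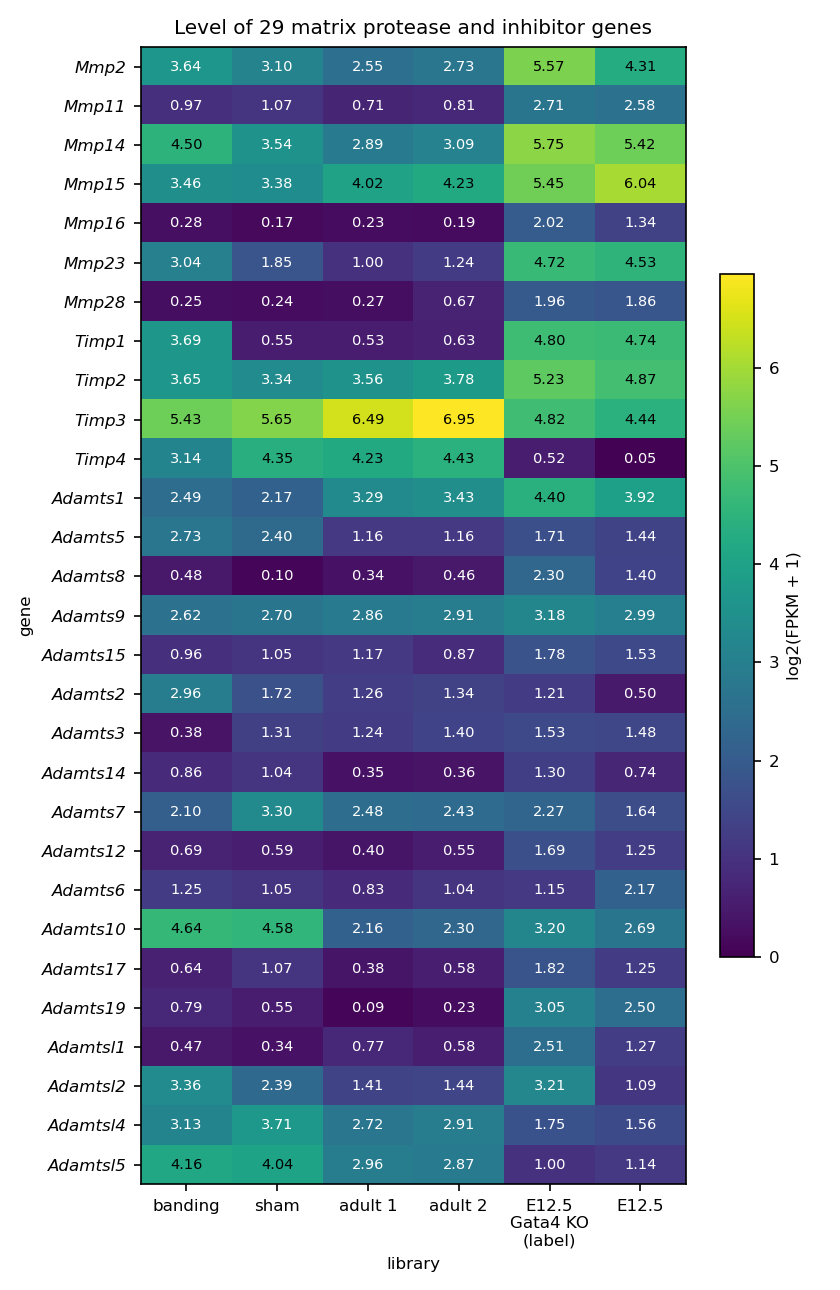
Level of the 29 members that reached 1 FPKM in at least 1 library, as log2(FPKM + 1), with 1 column per library and rows ordered by role. Timp3 is the brightest row in adult (6.49 and 6.95), Timp1 is bright in banding (3.69) and in both E12.5 libraries, and the Mmp rows are brightest in both E12.5 libraries.

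The inhibitors gave the clearest contrast between stages. Timp1, the inducible inhibitor, had a level of 3.69 in banding, 0.55 in sham, 0.53 and 0.63 in adult, 4.80 in the library labelled Gata4 KO and 4.74 in E12.5. It was thus low in sham and adult and high in banding and both embryonic libraries. Timp4, the inhibitor best known from adult heart, had a level of 3.14 in banding, 4.35 in sham, 4.23 and 4.43 in adult, 0.52 in the library labelled Gata4 KO and 0.05 in E12.5. Its order was the opposite, with banding below sham and adult, and both embryonic libraries lowest.

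Timp2, which also takes part in the activation of Mmp2 by Mmp14, had a level of 3.65 in banding, 3.34 in sham, 3.56 and 3.78 in adult, 5.23 in the library labelled Gata4 KO and 4.87 in E12.5. Timp3 had a level of 5.43 in banding, 5.65 in sham, 6.49 and 6.95 in adult, 4.82 in the library labelled Gata4 KO and 4.44 in E12.5. Its adult libraries differed by 0.47, the largest gap between the adult libraries among the 19 members that reached 1 FPKM there, against a median gap of 0.18 over those members and 0.14 over 10886 genes.

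Shares of the summed Timp FPKM do not depend on how a library was scaled. Timp1 made up 16.2% of it in banding and 0.59% in sham, 0.38% and 0.35% in adult, and 29.6% and 34.5% in the library labelled Gata4 KO and in E12.5. Timp4 made up 10.7% in banding and 24.8% in sham, 15.1% and 13.1% in adult, and 0.48% and 0.040% in the library labelled Gata4 KO and in E12.5. Timp3 held the greatest share in banding, sham and adult (57.3%, 62.9%, 75.3% and 78.4%), while Timp2 exceeded it in both E12.5 libraries.

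The summed FPKM of all Mmp genes over that of all Timp genes was 0.735 in banding and 0.425 in sham. It was 0.249 and 0.221 in adult, 1.98 in the library labelled Gata4 KO and 2.11 in E12.5. Inhibitor transcript thus exceeded Mmp transcript in banding, sham and adult, and Mmp transcript exceeded inhibitor transcript in both E12.5 libraries, with banding between sham and E12.5. These sums weigh transcripts per length and say nothing of protein or activity.

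**Figure D2:**
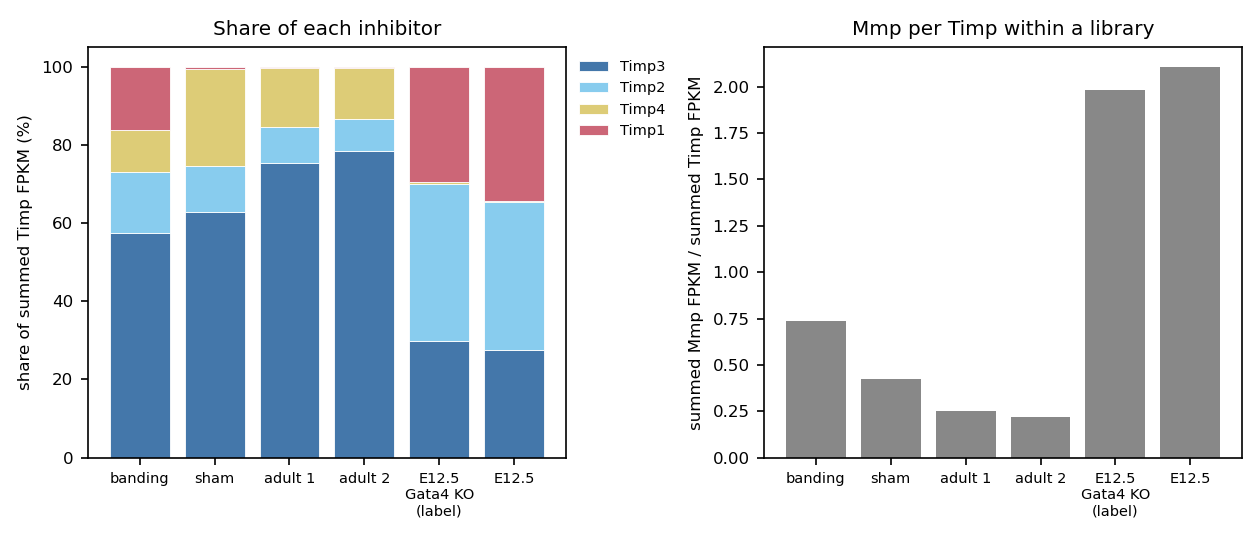
Left, share of each inhibitor in the summed Timp FPKM of a library (percent), stacked; right, summed Mmp FPKM over summed Timp FPKM in the same library, with 1 bar per library and no error bars. The Timp1 segment is visible in banding (16.2%) and in both E12.5 libraries and under 1% in sham and adult, and the ratio is 0.735 in banding against 0.425 in sham.

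The comparison of adult with E12.5 heart asked how the families differ between the mature and the developing heart. It was tested with limma on 12658 genes with at least 1 FPKM in 1 of the 3 libraries, with Benjamini-Hochberg adjustment at 0.05 over all of them. E12.5 has 1 library, whose spread was taken to equal that of the adult pair. The labels do not say that the adult pair stems from different animals or pools, so the p-values rest on a spread that may be technical. Of 28 members tested, 16 were lower in adult, where 48.4% of all genes tested were called lower, and 6 were higher, where 23.4% of all genes were. The median difference was -0.68 over the 28 members and -0.51 over all genes. All 16 lay below that median of all genes, Adamts1 (-0.55) and Adamtsl1 (-0.59) only narrowly. The 6 called higher had to lie above it, because the median was itself below 0.

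All 7 Mmp genes tested were lower in adult. Mmp23, a membrane-anchored MMP with a cysteine-rich array, had a level of 1.00 and 1.24 in adult and 4.53 in E12.5, a difference of -3.41 (SE 0.17, limma adjusted p = 0.00501). Mmp14 had 2.89 and 3.09 in adult and 5.42 in E12.5, a difference of -2.43 (SE 0.14, limma adjusted p = 0.00558). Mmp2, the gelatinase that Mmp14 activates, had 2.55 and 2.73 in adult and 4.31 in E12.5, a difference of -1.67 (SE 0.14, limma adjusted p = 0.00842). In all 3 genes both adult libraries lay below the E12.5 library by more than the gap between them.

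Mmp15, a second membrane-type MMP, had 4.02 and 4.23 in adult and 6.04 in E12.5, a difference of -1.91 (SE 0.14, limma adjusted p = 0.00691). Although it fell, it held 51.8% and 51.3% of the summed Mmp FPKM in adult and 41.0% in E12.5, so it was the leading Mmp transcript of both. Mmp11 (stromelysin-3) had 0.71 and 0.81 in adult and 2.58 in E12.5, and the membrane-type Mmp16 had 0.23 and 0.19 in adult and 1.34 in E12.5, with differences of -1.82 and -1.13. Mmp28 (epilysin) had 0.27 and 0.67 in adult and 1.86 in E12.5, a difference of -1.39 (SE 0.23, limma adjusted p = 0.0242). The call of Mmp28 was lost with a pseudocount of 0.1 FPKM (limma adjusted p = 0.0659).

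The inhibitors were split. Timp1 was lower in adult by the widest margin of the 28 members, with a difference of -4.16 (SE 0.12, limma adjusted p = 0.00398), and Timp2 was lower with a difference of -1.20 (SE 0.14, limma adjusted p = 0.0138). Timp4 was higher by 4.28 (SE 0.15, limma adjusted p = 0.00398), on 318 and 360 reads in adult and 1 read in E12.5. Timp3 was higher by 2.28 (SE 0.26, limma adjusted p = 0.0129).

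Most ADAMTS proteases tested were lower in adult or not called. Among those that cleave versican and aggrecan, Adamts1 had 3.29 and 3.43 in adult and 3.92 in E12.5, a difference of -0.55 (SE 0.12, limma adjusted p = 0.0388). That call was lost under upper-quartile scaling (-0.11, limma adjusted p = 0.44). Adamts8 had 0.34 and 0.46 in adult and 1.40 in E12.5, a difference of -0.998 (SE 0.09, limma adjusted p = 0.00894). Adamts5, Adamts9 and Adamts15 of the same role did not pass, with differences of -0.28, -0.11 and -0.51. The first 2 of these changed sign under upper-quartile and median-of-ratios scaling.

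Adamts19, known in humans for a link to heart valve disease, had a level of 0.09 and 0.23 in adult and 2.50 in E12.5, a difference of -2.34 (SE 0.10, limma adjusted p = 0.00431). Adamts12, which cleaves the cartilage protein COMP, Adamts17 and Adamts6 were also lower, by differences of -0.77, -0.76 and -1.24. Among the procollagen N-proteinases, which trim the amino end of fibrillar procollagens, Adamts2 had 1.26 and 1.34 in adult and 0.50 in E12.5, a difference of 0.80 (SE 0.08, limma adjusted p = 0.0109). Adamts7, the other COMP-cleaving member, had 2.48 and 2.43 in adult and 1.64 in E12.5, a difference of 0.82 (SE 0.12, limma adjusted p = 0.0191). With the library labelled Gata4 KO in place of E12.5 the calls of Adamts2, Adamts7 and Adamts6 were lost (limma adjusted p = 0.443, 0.265 and 0.246). Adamts3 and Adamts10 did not pass, with differences of -0.16 and -0.46, and Adamts3 changed sign under the same scalings as Adamts5.

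Of the ADAMTS-like genes, those for 2 microfibril proteins were higher in adult. Adamtsl5 had 2.96 and 2.87 in adult and 1.14 in E12.5, a difference of 1.77 (SE 0.12, limma adjusted p = 0.0068). Adamtsl4, which binds fibrillin-1, had 2.72 and 2.91 in adult and 1.56 in E12.5, a difference of 1.26 (SE 0.16, limma adjusted p = 0.0148). Adamtsl1 was lower, with 0.77 and 0.58 in adult and 1.27 in E12.5, a difference of -0.59 (SE 0.12, limma adjusted p = 0.0359), a call lost with a pseudocount of 0.1 FPKM (limma adjusted p = 0.0616). Adamtsl2 had 1.41 and 1.44 in adult and 1.09 in E12.5 and did not pass (difference 0.34, SE 0.09, limma adjusted p = 0.053). It passed with the opposite sign when the library labelled Gata4 KO stood in for E12.5 (-1.79, limma adjusted p = 0.00645).

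By a rule of size with no test, a difference of at least 1 where the higher group has 5 FPKM or more, 4 of 13 members were higher in adult (17.0% of all genes) and 6 lower (38.9% of all genes). The 4 were Timp3, Timp4, Adamtsl4 and Adamtsl5, and the 6 were Mmp2, Mmp14, Mmp15, Mmp23, Timp1 and Timp2. Markers of cell types differed widely between these hearts. Summed FPKM of 7 fibroblast and mesenchyme markers was 117 and 142 in adult and 90.6 in E12.5, and 51.4 and 60.9 in adult and 74.4 in E12.5 without Dcn, the highest of them. In both adult libraries 2 of the 7 lay below E12.5 (Tcf21 with 1.31 and 1.60 in adult and 4.59 in E12.5, and Col1a1 with 2.95 and 3.24 in adult and 5.05 in E12.5), and 4 lay above it. Those 4 were Dpt (4.19 and 4.23 in adult, 0 in E12.5), Lum (2.84 and 3.02 in adult, 1.26 in E12.5), Dcn (6.05 and 6.35 in adult, 4.10 in E12.5) and Postn (4.13 and 4.45 in adult, 3.83 in E12.5). The sum of 5 epicardium and mesothelium markers was 7.74 and 5.86 in adult and 107 in E12.5, that of 6 cardiomyocyte markers 37304 and 38203 in adult and 5916 in E12.5, and that of 5 red cell markers 0.521 and 1.31 in adult and 21255 in E12.5. Their part in the members' differences was not tested.

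**Figure D3:**
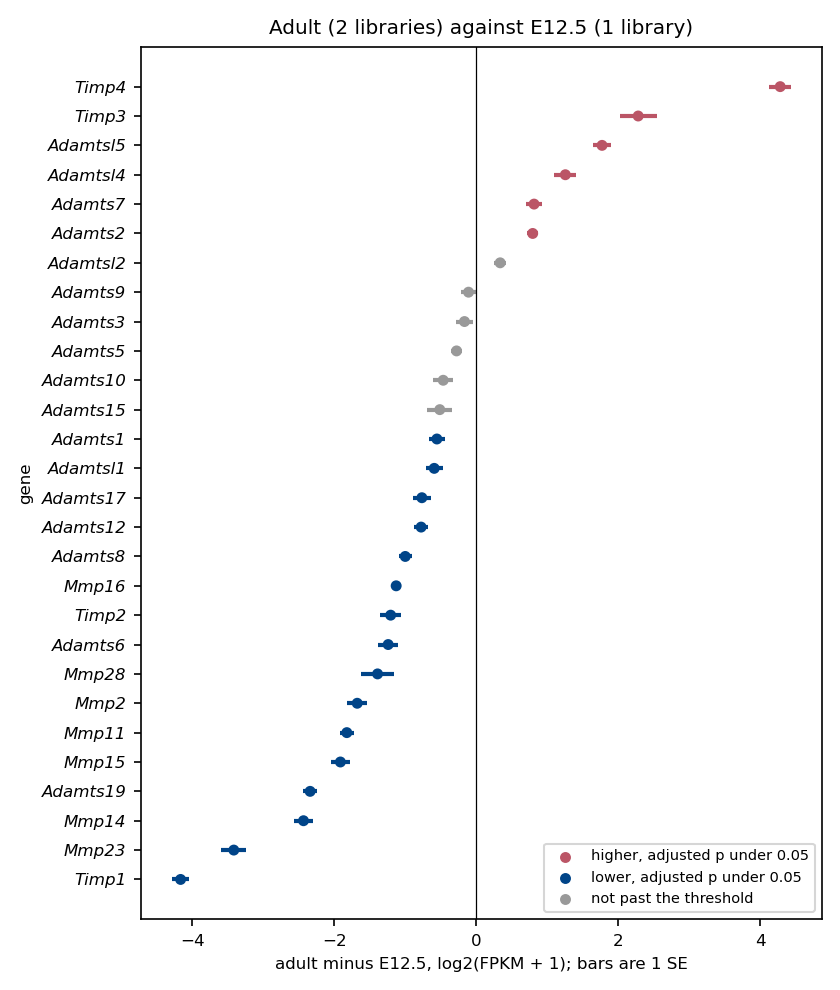
Difference in log2(FPKM + 1) between adult (mean of 2 libraries) and E12.5 (1 library) for the 28 members tested; points are limma estimates, bars 1 SE, colours the call at an adjusted p of 0.05. The 16 lower members include all 7 Mmp genes, and the 6 higher ones run from 0.80 (Adamts2) to 4.28 (Timp4).

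The comparison of banding with sham asked what pressure loading changes. Each group had 1 library, so there is no replicate check and no p-value, and intervals are exact 95% conditional binomial intervals from recovered reads, which cover counting error only. Of 23 members with at least 1 FPKM in either library, 9 had a ratio whose interval lay above 1, against 22.7% of all genes, and 6 had one below 1, against 16.2% of all genes. By the rule of size, 3 of 16 were higher (2.51% of all genes) and 2 lower (0.998% of all genes). The median difference was 0.08 over the 23 members and 0.03 over all genes, and members lay on both sides of 1.

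Timp1 had 148 reads in banding and 5 in sham, a ratio of FPKM of 25.5 (10.7 to 79.8). Its level of 3.69 in banding also lay above both adult libraries (0.53 and 0.63) and below both E12.5 libraries (4.80 and 4.74). Timp4 had 155 reads in banding and 332 in sham, a ratio of 0.403 (0.331 to 0.489). Timp2 was higher at 1.27 (1.12 to 1.44) and Timp3 lower at 0.853 (0.809 to 0.900), so the inhibitors split as 2 above and 2 below. In FPKM, Timp1 exceeded Timp4 by 1.52 times in banding, while in sham Timp4 exceeded Timp1 by 41.7 times.

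Of the 5 Mmp genes compared, 3 were higher in banding. Mmp23 had a level of 3.04 in banding and 1.85 in sham, a ratio of 2.78 (1.98 to 3.97). Mmp14 had 4.50 in banding and 3.54 in sham, a ratio of 2.04 (1.79 to 2.32), and Mmp2 had 3.64 in banding and 3.10 in sham, a ratio of 1.52 (1.31 to 1.76). The intervals of Mmp15 (1.06, 0.940 to 1.20) and Mmp11 (0.862, 0.502 to 1.48) included 1. The protease Mmp2 and its activator Mmp14 were thus higher in banding, and Mmp15, the leading Mmp transcript of adult heart, was not detectably different.

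The procollagen N-proteinases went in different directions. Adamts2 had a level of 2.96 in banding and 1.72 in sham, a ratio of 2.94 (2.36 to 3.70), and banding was the highest of the 6 libraries for it. Adamts3 had 0.38 in banding and 1.31 in sham, a ratio of 0.203 (0.134 to 0.300), and banding was the lowest library for it, the other 5 lying between 1.24 and 1.53. Adamts14 had 0.86 in banding and 1.04 in sham, with an interval that included 1 (0.771, 0.533 to 1.11).

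Adamts7 had a level of 2.10 in banding and 3.30 in sham, a ratio of 0.372 (0.319 to 0.432), with sham the highest of the 6 libraries. Adamts17 was lower at 0.507 (0.346 to 0.735). The versicanases Adamts1 and Adamts5 were higher at 1.31 (1.10 to 1.57) and 1.32 (1.17 to 1.50), while the intervals of Adamts9 and Adamts15 included 1. Among ADAMTS-like genes, Adamtsl2, which in humans is mutated in geleophysic dysplasia, had 3.36 in banding and 2.39 in sham, a ratio of 2.18 (1.82 to 2.63). Adamtsl4 was lower at 0.645 (0.567 to 0.733), and Adamtsl5 included 1 at 1.10 (0.966 to 1.24).

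Adamts10, a fibrillin-binding ADAMTS, was nearly equal in banding and sham (4.64 and 4.58, a ratio of 1.05, 0.967 to 1.13). It held 42.5% and 42.2% of the summed Adamts FPKM of these libraries, against 11.3% and 11.8% in adult and 12.1% and 11.3% in the library labelled Gata4 KO and in E12.5. Banding and sham also had more reads off listed genes, 43.5% and 46.1% against 18.3% and 17.8% in adult. The part of this in the share of Adamts10 was not tested. Adamts6, a close relative of Adamts10, was not detectably different between banding and sham either, at 1.29 (0.928 to 1.81).

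Markers of cell types also differed between banding and sham. Summed FPKM of fibroblast and mesenchyme markers was 662 in banding and 264 in sham, with 7 of 7 higher and none at 0 in either library. It was 156 in banding and 53.2 in sham without Dcn. The sum for smooth muscle and pericytes was 1647 in banding and 703 in sham, with 6 of 6 higher. It was 140 in banding and 112 in sham without Des, which cardiomyocytes also express. The sum for macrophages was 50.6 in banding and 35.5 in sham, with 6 of 6 higher. Cardiomyocyte markers summed to 20646 in banding and 24448 in sham. Endothelium markers summed to 141 in banding and 149 in sham, and epicardium and mesothelium markers to 9.36 and 12.7. In each of these last lists 2 of 5 markers were higher in banding. The part of the cell types in the members' differences was not tested.

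The banding against sham and adult against E12.5 comparisons share no library. Of the 9 members with an interval above 1 in banding, 6 were called lower in adult than in E12.5 (Mmp2, Mmp14, Mmp23, Timp1, Timp2 and Adamts1), against 44.3% of all genes above 1 in banding. Of the 6 members below 1 in banding, 4 were called higher in adult (Timp3, Timp4, Adamts7 and Adamtsl4), against 43.2% of all genes below 1. Adamts2 went the other way, higher in banding and higher in adult, and Adamts17 was lower in both. The counts are small and carry no test.

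**Figure D4:**
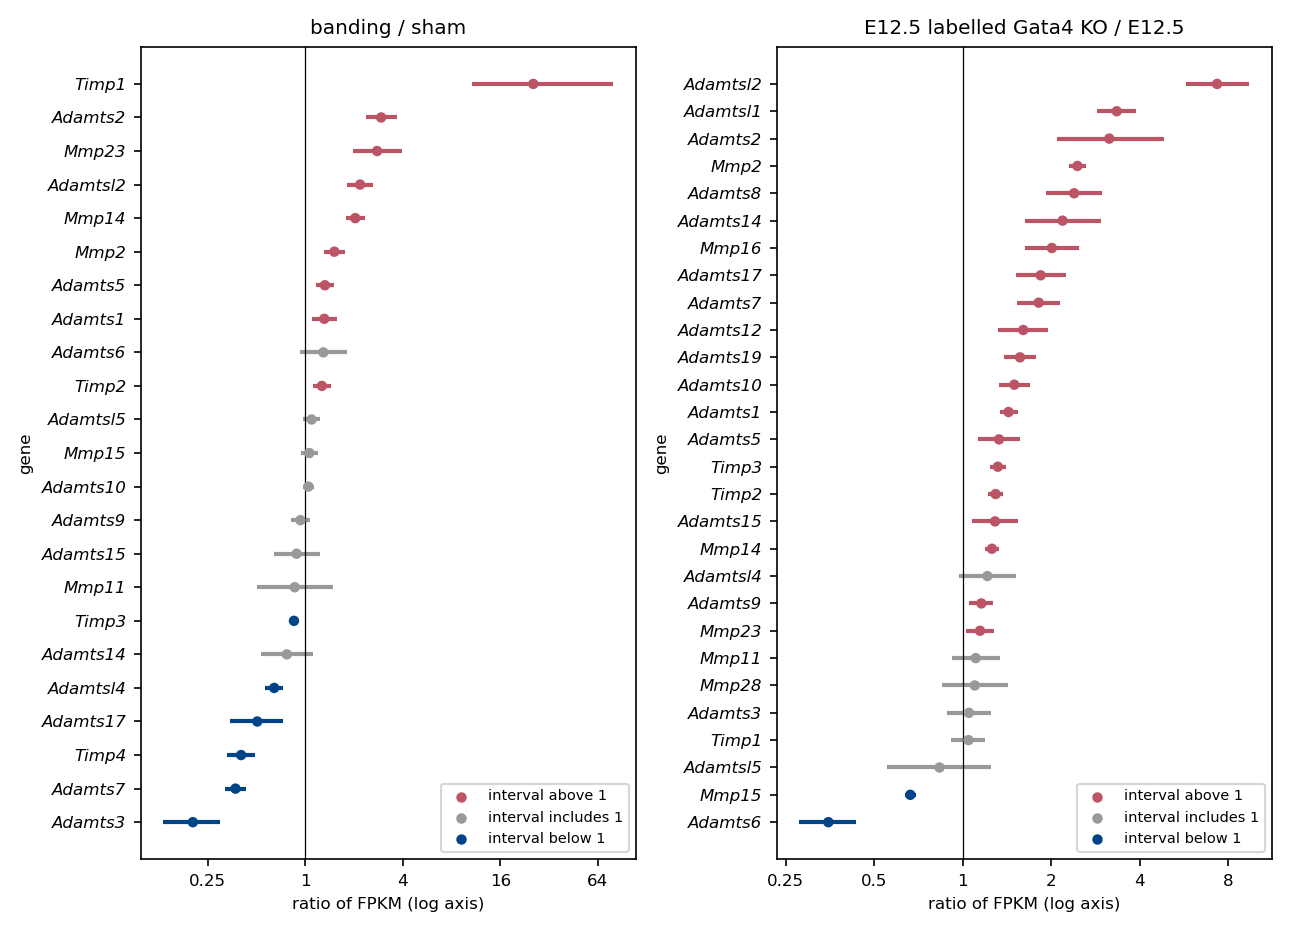
Ratio of FPKM between single libraries with exact 95% counting intervals (bars) on a log axis, for banding over sham (left, 23 members) and the E12.5 library labelled Gata4 KO over E12.5 (right, 28 members). On the left the ratios run from 0.203 (Adamts3) to 25.5 (Timp1) on both sides of 1, and on the right 20 intervals lie above 1 and 2 below.

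The E12.5 library labelled Gata4 KO was set against the E12.5 library to ask what loss of Gata4 changes in the embryo, with the limit that Gata4 itself was not lower. Of 28 members, 20 had a ratio whose interval lay above 1, against 24.0% of all genes, and 2 had one below 1, against 28.0% of all genes. The median difference was 0.37 over the members and -0.02 over all genes, and 25 of 28 members were higher, against 46.4% of all genes. By the rule of size, 2 of 13 were higher (1.36% of all genes) and 0 lower (0.742% of all genes). There is 1 library a group, so no p-value was computed.

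Adamtsl2 differed most among the 28 members, with a level of 3.21 and 478 reads in the library labelled Gata4 KO and 1.09 and 77 reads in E12.5, a ratio of 7.34 (5.76 to 9.47). Adamtsl1 had 2.51 in the library labelled Gata4 KO and 1.27 in E12.5, a ratio of 3.34 (2.88 to 3.90). Adamtsl4 (1.21, 0.968 to 1.52) and Adamtsl5 (0.834, 0.551 to 1.25) had intervals that included 1, so the ADAMTS-like genes did not share a difference.

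Of the Mmp genes, Mmp2 had 5.57 in the library labelled Gata4 KO and 4.31 in E12.5, a ratio of 2.46 (2.29 to 2.63), the highest level of Mmp2 in the 6 libraries. Mmp16 had a ratio of 2.01 (1.63 to 2.48), Mmp14 of 1.26 (1.19 to 1.33) and Mmp23 of 1.15 (1.03 to 1.28). Mmp15 was the exception, with 5.45 in the library labelled Gata4 KO and 6.04 in E12.5, a ratio of 0.663 (0.635 to 0.692). In the summed Mmp FPKM its share was 23.7% in the library labelled Gata4 KO and 41.0% in E12.5, and that of Mmp2 was 25.7% and 12.0%.

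The other member below 1 was Adamts6, with 1.15 in the library labelled Gata4 KO and 2.17 in E12.5, a ratio of 0.349 (0.278 to 0.435). E12.5 was the highest library for it, and the one labelled Gata4 KO lay close to banding (1.25) and sham (1.05). The related Adamts10 was higher, at 1.50 (1.33 to 1.70). All 5 versican-cleaving members compared were higher, from Adamts9 at 1.16 (1.05 to 1.27) to Adamts8 at 2.39 (1.92 to 2.99). Adamts2 had a ratio of 3.15 (2.09 to 4.86) and Adamts14 of 2.19 (1.63 to 2.95), while Adamts3 included 1 at 1.05 (0.884 to 1.25). Adamts7, Adamts12, Adamts17 and Adamts19 were higher, at 1.81, 1.61, 1.84 and 1.57.

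Of the inhibitors, Timp2 had a ratio of 1.29 (1.22 to 1.37), Timp3 of 1.32 (1.24 to 1.40) and Timp1 of 1.05 (0.916 to 1.19), the last with an interval that included 1. Timp4, below 1 FPKM in both libraries, had 11 reads in the library labelled Gata4 KO and 1 in E12.5, a ratio of 13.0 (1.89 to 559.9). Fibroblast and mesenchyme markers summed to 189 FPKM in the library labelled Gata4 KO and 90.6 in E12.5, with 7 of 7 higher and Dpt at 0 in E12.5. Smooth muscle and pericyte markers summed to 1341 in the library labelled Gata4 KO and 729 in E12.5, and macrophage markers to 59.4 and 38.3, with 6 of 6 higher in both lists. Cardiomyocyte markers summed to 3351 in the library labelled Gata4 KO and 5916 in E12.5, red cell markers to 64667 and 21255, and neutrophil markers to 13.3 and 0.980 FPKM with 7 of 7 higher. Their part in the members' differences was not tested.

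Sham and adult hearts are both unbanded, and their libraries differed in composition as given above. Of 22 members with at least 1 FPKM in either group, 14 lay above both adult libraries in sham, 5 below both and 3 between them. The share of all genes on either side of both adult libraries was not computed. Set against the adult mean on the scale as deposited, 16 of the 22 members were higher in sham and 6 lower. Of all genes, 30.8% were higher. The median difference was 0.44 over the members and -0.44 over all genes. By the rule of size, 2 of 12 were higher in sham (5.23% of all genes) and 2 lower (38.5% of all genes). With 3 other scalings 7 or 8 were higher and 0 lower, so the split rests on the scale as deposited. How many of all genes met the rule under those scalings was not counted.

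Adamts10 had the widest difference, with 4.58 in sham and 2.16 and 2.30 in adult, 2.35 higher. Adamtsl5 had 4.04 in sham and 2.96 and 2.87 in adult, 1.13 higher, and Adamts5 had 2.40 in sham and 1.16 in both adult libraries, 1.24 higher at under 5 FPKM. Timp3 was lower with 5.65 in sham against 6.49 and 6.95 in adult, and Adamts1 with 2.17 in sham against 3.29 and 3.43 in adult. Without Adult replicate 2, Timp3 no longer met the rule and the count of lower members was 1. Timp1 (0.55 in sham, 0.53 and 0.63 in adult) and Timp4 (4.35 in sham, 4.23 and 4.43 in adult) lay between the adult libraries in sham. The banding values of both genes lay outside the range of the sham and adult libraries.

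Other protease systems and the substrates of these enzymes give the setting. Over all genes tested, limma called 23.4% higher and 48.4% lower in adult, and the interval lay above 1 for 22.7% in banding and 24.0% in the library labelled Gata4 KO, so list counts near these shares are not a result about the list. In the plasminogen system, 1 of 5 genes tested was higher and 2 lower in adult than in E12.5. Serpine2, a protease inhibitor that acts on thrombin and urokinase, had 1.61 and 2.09 in adult and 4.62 in E12.5 (difference -2.77, SE 0.29, limma adjusted p = 0.0112), and the plasminogen activator Plat fell by 0.95. In banding Serpine2 had 4.24, against 2.74 in sham, the only gene of this list past the rule of size.

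Of 8 cell-surface regulators and convertases tested, 1 was higher and 6 lower in adult. The hyaluronan receptor Cd44 fell by 2.17 (SE 0.17), the membrane inhibitor Reck by 1.56 (SE 0.13) and the convertase Pcsk5 by 1.52 (SE 0.07), while the MMP inducer Bsg was higher by 1.35 (SE 0.10), with limma adjusted p between 0.00454 and 0.00818. Of 8 ADAM genes 2 were higher and 4 lower, among them Adam17 higher by 1.09 and Adam19 and Adam10 lower by differences of -1.18 and -1.0035, with Adam33 at -0.83. Of 7 cathepsin-list genes tested 0 were higher and 6 lower, with Ctsk, the collagen-degrading cathepsin, at -2.85, Ctsz at -2.65, the inhibitor Cst3 at -1.61 and Ctsd at -1.01. In banding 6 of 7 of the cathepsin list had an interval above 1 and 0 below, with none past the rule of size.

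Of 3 tolloid-list genes tested, the procollagen C-proteinase Bmp1 and its enhancer Pcolce fell by 1.21 and 2.47 in adult, and the second enhancer Pcolce2 was higher by 1.83. Pcolce had 5.09 in banding and 4.04 in sham, past the rule of size, with a ratio of 2.14 (1.86 to 2.46). Bmp1 itself had 3.73 in banding and 3.65 in sham, with an interval that included 1 (1.07, 0.958 to 1.19).

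Of 15 substrates and partners tested, 10 were lower and 2 higher in adult. The largest were the fibrillin Fbn2 (-4.45, SE 0.12), fibronectin Fn1 (-4.06, SE 0.14), versican Vcan (-4.01, SE 0.13) and the hyaluronan link protein Hapln1 (-2.50, SE 0.06), each with a limma adjusted p = 0.00398. In banding 9 of 12 had an interval above 1 and 1 below. Col1a1 had a level of 6.11 in banding and 4.08 in sham, Col1a2 of 5.92 and 4.47, and Col3a1 of 6.04 and 4.73, ratios of 4.28, 2.82 and 2.55. In the library labelled Gata4 KO 14 of 15 lay above 1 and 0 below, and 4 passed the rule of size. These were elastin Eln (2.97 against 1.21 in E12.5), Col3a1 (6.50 against 5.13), Vcan (6.61 against 5.38) and Col1a1 (6.13 against 5.05).

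Some members overlap other genes in the RefSeq annotation, and the sources used here do not say whether reads were counted by strand. Timp1, Timp3 and Timp4 lie within Syn1, Syn3 and Syn2, which had at most 29, 73 and 108 reads in a library. Mmp23 overlaps Mib2, with 419 reads in banding and 377 in sham, and Mmp28 overlaps 1700020L24Rik, with 81 reads in the library labelled Gata4 KO and 99 in E12.5. Reads of overlapping partners cannot be told apart without strand, so the values of Mmp23 and Mmp28 are uncertain.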

How the data were processed

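Poly(A) RNA from mouse heart was sequenced in 6 libraries of 5 groups. The authors deposited 1 log2 value per gene symbol, log2(FPKM + 1), a scale read from the values. The submitters' processing notes name build mm9 and, among other tools, TopHat 1.4 (an aligner) and HTSeq 0.5.3 (a read counter). They do not say which tool produced these values. Of 98043 deposited values above 0, 99.99% gave a whole number of reads to within 0.001. The test of adult against E12.5 was limma 3.58.1 (R 4.3.3) with a trend and 1 residual degree of freedom, a step also run on simulated data. The simulation gave every library the same spread, so it cannot check that assumption for E12.5. Comparisons of single libraries use a rule of size and counting intervals. Differences on the log2(FPKM + 1) scale understate the change of low genes. FPKM is scaled to mapped reads, of which a larger share lay off listed genes in banding and sham.

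Members, lists of other genes and markers were chosen with earlier results of these data known. Members with at least 1 FPKM in 1 library are named, and of each other list up to 4 genes with the largest difference among those that passed, apart from items that are not reported here. Promoter windows came from RefSeq GRCm38.p6 and were matched by symbol, and overlaps between genes use names from the same annotation. Scalings, pseudocounts, filters and left-out adult libraries were tried as alternatives. Protein sequences were not used here.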

Additional observations from a re-analysis of the deposited data

How the results depend on the processing

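The split of 6 members higher and 16 lower in adult by limma kept within 1.5 times under every alternative run but 1, a filter of at least 5 FPKM, which left 13 members to test and called 8 lower. With that filter, 4647 of all 8900 genes tested were called lower. By the rule of size, the 6 members lower in adult became 11 with a floor of 1 FPKM and 10 with the library labelled Gata4 KO in place of E12.5, an alternative chosen after seeing the data. With a floor of 1 FPKM, 1 member was lower in the library labelled Gata4 KO in place of 0. With a pseudocount of 0.1 FPKM, 5 members in place of 3 were higher in banding. In sham against adult, the 2 higher members became 8 with upper-quartile scaling, 7 with median-of-ratios scaling and 8 without the 50 highest genes, and the 2 lower became 0, 0 and 0. Leaving out 1 adult library gave 1 to 2 lower members there. For the rule of size, the share of all genes was not computed under these alternatives. Counts that moved are therefore not a result about the members.

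The sign of 4 members that had not passed limma in adult against E12.5 turned. Adamts5 came to 0.0098 and 0.0246, Adamts9 to 0.30 and 0.33 and Adamts3 to 0.12 and 0.14 with upper-quartile and median-of-ratios scaling, none past the threshold. Adamtsl2 came to -1.79 with the library labelled Gata4 KO in place of E12.5. The cause was not tested. Scaling moved the median of all genes in adult against E12.5 from -0.51 to -0.11 (upper quartile), -0.10 (median of ratios) and -0.44 (without the 50 highest genes), and in sham against adult from -0.44 to 0.12, -0.05 and 0.18. Adamtsl2 passed as higher in adult under these 3 scalings (limma adjusted p = 0.0195, 0.0194 and 0.0373). Adamts5, Adamts15 and Adamts10 passed as lower in adult with the library labelled Gata4 KO in place of E12.5 (limma adjusted p = 0.021, 0.0479 and 0.0193), and Adamts10 also with the filter of 5 FPKM (0.0486). With no filter on low values the calls of Mmp28, Adamts1, Adamts17 and Adamtsl1 were lost.

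No paired analysis was possible because 4 of the 5 groups have 1 library, so no groups share 2 replicate numbers. Single libraries limit all comparisons but adult against E12.5 to these libraries, and limma without 1 adult library has no residual degrees of freedom, so only sizes were recomputed. Low read numbers limit Timp1 in sham (5 reads) and Timp4 in E12.5 (1 read).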

Other observations

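Members below 1 FPKM in both libraries of a comparison were left out of the counts above, and a few still differed beyond counting error. In banding against sham there were 28 such members, of which 3 had an interval above 1 and 1 below. The share over all genes below 1 FPKM was not computed, so these counts are not a result about the members. The versicanase Adamts20 had 67 reads in banding and 4 in sham, a ratio of 14.4 (5.39 to 54.6), against 7 and 10 reads in adult, 46 in the library labelled Gata4 KO and 26 in E12.5. Adamts4, an aggrecan-cleaving member, had 22 reads in banding and 1 in sham (19.0, 3.07 to 783), a value that is uncertain because use of strand in counting is unknown. Adamts8 had 20 reads in banding and 3 in sham (5.75, 1.71 to 30.2), and Adamtsl3 had 41 in banding and 56 in sham (0.631, 0.411 to 0.962). Of the 3 that were higher in banding, sham was the lowest of the 6 libraries for each by level.

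In the library labelled Gata4 KO against E12.5 there were 23 such members, of which 4 had an interval above 1 and 0 below. Here too the share over all such genes was not computed. The membrane-type Mmp17 had 61 reads in the library labelled Gata4 KO and 39 in E12.5, and Mmp25, an MMP known from leukocytes, had 26 and 14. The others were Adamts20, with 46 and 26 reads, and Timp4, given above. Mmp21 had 10 reads in banding and 13 in sham and 0 in each of the other 4 libraries, and Mmp27 had 3 and 2 with 0 elsewhere. These genes were chosen after their values were seen.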
